A study of Mus musculus with 9 samples.

Results

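The genes of MHC class II antigen presentation were followed through RNA-seq libraries of sorted mouse hematopoietic stem cells (HSCs). They were the 10 rows of the deposited gene count table, out of 56748, named *H2-Aa*, *H2-Ab1*, *H2-Eb1*, *Cd74*, *Ciita*, *H2-DMa*, *H2-DMb1*, *H2-DMb2*, *H2-Oa* and *H2-Ob*. All 10 were found and all 10 passed the filter on low counts in every comparison. The 9 libraries formed 3 groups with 3 libraries each (n = 3). Young HSCs (yHSCs) came from the bone marrow of mice aged 6 to 10 weeks, and pre-aged HSCs (paHSCs) from mice aged 14 to 16 months. The paHSCs had been separated by the amount of P-selectin (Selp) on the cell surface into Selp low paHSCs and Selp high paHSCs. The study used female C57BL/6 mice and sorted HSCs as lineage-negative, Sca-1+, c-Kit+, CD48-, CD150+ cells. Whether each library came from 1 mouse or from several is not given in the sources used here, so the p-values measure only the spread between these libraries, which may be in part technical.

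MHC class II molecules carry peptides made in endosomes to the cell surface, where CD4+ T cells read them. An alpha and a beta chain pair in the endoplasmic reticulum with the invariant chain Cd74, which blocks the groove and guides the complex to endosomes. There proteases cut Cd74 down to a fragment, the H2-DM dimer exchanges this fragment for antigen peptides, and the H2-O dimer restrains H2-DM. Ciita, a coactivator that does not bind DNA itself, sits on a shared promoter module of these genes and is the main switch of their transcription. B cells, dendritic cells and macrophages are the classical class II cells of the marrow, and H2-O is best known from B cells and thymus. HSCs have also been described to carry class II at a low level.

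The promoter module was looked for in those of the 10 genes whose promoter sequence was at hand. It holds an X box, bound by RFX and CREB family proteins, and a Y box, an inverted CCAAT box bound by NF-Y. Promoter sequences from RefSeq (build GRCm38.p6, 250 bases before to 50 after each start) were at hand for 7 of the 10 genes and not for *H2-Ab1*, *Cd74* and *Ciita*. The Y box letters TGATTGG were on the gene's own strand, within 250 bases before the start, in 6 of these 7 genes, and the exception was *H2-DMa*. In the same 6 genes the letters AAC stood 26 to 29 bases before the first letter of TGATTGG, with no overlap between them. Among all 32851 promoters of the table, 7.23% held TGATTGG on either strand and 3.64% on the gene's strand. The pair at this spacing was in 0.396% on either strand and in 0.167% on the gene's strand. The letters and the spacing were chosen after the sequences of these genes had been seen, and a match is a description of the letters, not of a bound site. The windows below are printed 5′ to 3′ on the gene's strand, with AAC and TGATTGG in capitals.
*H2-Aa* (chr17:34287862-34287912, minus strand): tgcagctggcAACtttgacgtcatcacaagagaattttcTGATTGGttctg
*H2-Eb1* (chr17:34305768-34305817, plus strand): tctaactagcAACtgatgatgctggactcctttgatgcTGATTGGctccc
*H2-DMb1* (chr17:34153089-34153139, plus strand): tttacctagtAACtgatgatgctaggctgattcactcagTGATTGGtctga
*H2-DMb2* (chr17:34145118-34145168, plus strand): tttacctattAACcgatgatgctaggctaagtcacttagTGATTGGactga
*H2-Oa* (chr17:34092295-34092345, plus strand): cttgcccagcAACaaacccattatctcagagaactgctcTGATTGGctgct
*H2-Ob* (chr17:34238810-34238857, plus strand): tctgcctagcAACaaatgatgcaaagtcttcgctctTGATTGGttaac

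The libraries held 24866975 to 35375310 counts each, and levels are given as CPM, counts scaled to library size with TMM factors (0.545 to 1.22). A list of 12 HSC genes, among them *Ly6a*, *Kit* and *Meis1*, was detected in full, with sums of 1393 to 2947 CPM in yHSCs, 1062 to 1808 CPM in Selp low paHSCs and 2671 to 4012 CPM in Selp high paHSCs. In Selp low 1 and 2, *Ly6a* alone held 635 and 879 CPM of sums of 1808 and 1473 CPM, against 144 to 188 CPM in yHSCs. By edgeR estimates 9 of the 12 genes were lower and 3 higher in Selp low paHSCs than in yHSCs (median log2 fold change -0.918). In Selp high over Selp low paHSCs 11 were higher and 1 lower (median 1.51). None passed the thresholds with edgeR in these 2 comparisons. *Selp* itself was at 20.5 to 30.02 CPM in yHSCs, 29.3 to 109 CPM in Selp low paHSCs and 264 to 652 CPM in Selp high paHSCs, with no overlap between the paHSC fractions. The 3 Selp low libraries did not resemble each other. In Selp low 2, 41.0% of all counts lay on immunoglobulin and T-cell receptor genes, and in Selp low 1 it was 3.09%. Selp low 3 carried 203898 CPM on a list of 9 neutrophil genes, led by *Ngp*, *S100a9*, *S100a8* and *Ltf*, against 535 to 63241 CPM in the other 8 libraries. Counts of genes past the thresholds that rest on the Selp low libraries are given with and without them.

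The class II genes separated these Selp low libraries from each other more than they separated the groups. For 9 of the 10 genes the highest levels of all libraries were in Selp low 1 and Selp low 2, the exception being *H2-DMb1*. Selp low 3 was the lowest of the 9 libraries for 6 genes and lay below all 3 yHSC libraries for 9, with *H2-Eb1* as the exception. Within Selp low paHSCs the highest library exceeded the lowest by 5.14-fold for *H2-DMb1* up to 179-fold for *Cd74*, with a median of 45.4-fold. The same ratio was 1.06 to 3.83 in yHSCs and 2.09 to 3.83 in Selp high paHSCs. Together the 10 genes took 2.74% of the counts of Selp low 1 and 1.96% of those of Selp low 2, but 0.0356% in Selp low 3, 0.0799% to 0.190% in yHSCs and 0.103% to 0.328% in Selp high paHSCs.

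**Figure D1:**
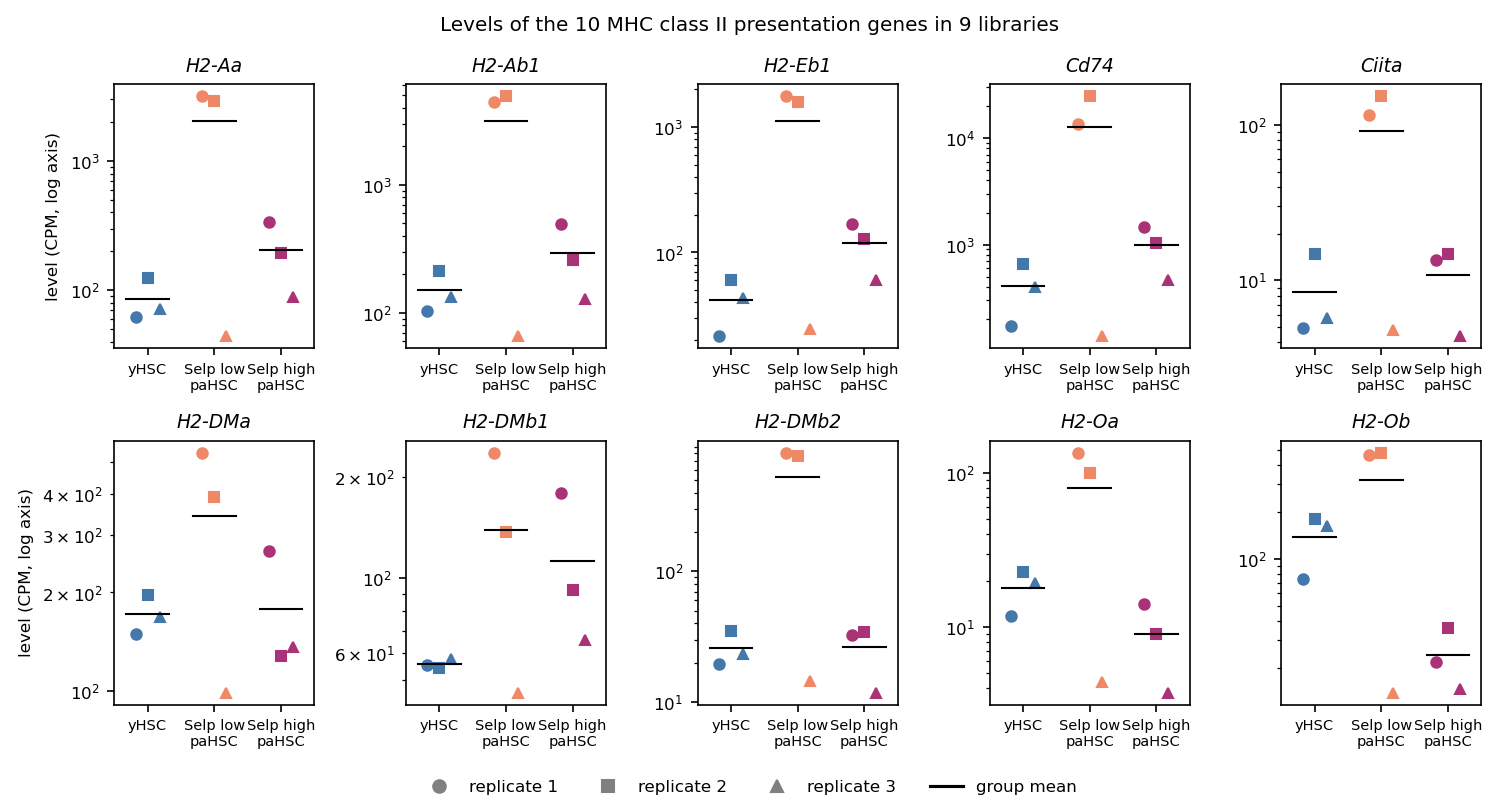
Level of each of the 10 genes in CPM (vertical axis, logarithmic, its own range in each panel) in the 3 libraries of each group. Symbols mark the replicate number and bars the group mean. Replicates 1 and 2 of Selp low paHSCs stand far above replicate 3 in each panel, and for *H2-Ob* the 3 Selp high libraries (14.6 to 35.9 CPM) lie below the 3 yHSC libraries (74.0 to 178.6 CPM).

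The chains of the peptide-binding molecules were present in every library. *H2-Aa*, the alpha chain of I-A, had 62.5, 123 and 72.2 CPM in yHSCs 1 to 3, 3157, 2901 and 44.1 CPM in Selp low paHSCs 1 to 3, and 335, 194 and 88.4 CPM in Selp high paHSCs 1 to 3. *H2-Ab1*, its beta chain, had 103, 212 and 134 CPM in yHSCs, 4473, 4903 and 65.5 CPM in Selp low paHSCs, and 493, 257 and 129 CPM in Selp high paHSCs. *H2-Eb1*, the beta chain of I-E, had 21.4, 60.3 and 43.5 CPM in yHSCs, 1758, 1575 and 24.4 CPM in Selp low paHSCs, and 169, 128 and 59.97 CPM in Selp high paHSCs. All 3 genes overlapped between every pair of groups: Selp high libraries lay below Selp low 1 and 2 but above Selp low 3. Selp high 1 and Selp high 2 were above all yHSC libraries for each of the 3 genes, while Selp high 3 lay within the yHSC range.

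*Cd74*, the invariant chain, was the most abundant of the 10 genes per length in all 9 libraries. It had 170.7, 654 and 400.5 CPM in yHSCs, 13479, 24608 and 137.5 CPM in Selp low paHSCs, and 1473, 1029 and 469 CPM in Selp high paHSCs. As FPKM (CPM per kilobase of the gene length in the authors' file) the group means were 243 ± 144 for yHSCs, 7589 ± 7297 for the Selp low and 589.8 ± 299.8 for the Selp high fraction (SD, n = 3), so that the SD of the Selp low group nearly equalled its mean. *Ciita*, the coactivator, was the least abundant per length in all 9 libraries. It had 4.94, 14.7 and 5.77 CPM in yHSCs, 115 and 152 CPM in Selp low 1 and 2 against 4.83 CPM in Selp low 3, and 13.5, 14.9 and 4.38 CPM in Selp high paHSCs. Selp high paHSCs and yHSCs covered the same range for *Ciita*, and its lowest reading, 129 counts in Selp low 3, was far above the 3 counts that a count of 0 allows.

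The H2-DM genes, which encode the peptide exchange factor, did not move as a unit. *H2-DMa*, the alpha chain, had 150, 197 and 168 CPM in yHSCs, 532.5, 391 and 99.2 CPM in Selp low paHSCs, and 268, 128 and 137 CPM in Selp high paHSCs. *H2-DMb1*, a beta chain, had 55.3, 54.3 and 57.7 CPM in yHSCs, 236, 137 and 45.9 CPM in Selp low paHSCs, and 180, 92.4 and 65.7 CPM in Selp high paHSCs. It was the steadiest gene among yHSCs, and its 3 Selp high libraries lay above the 3 yHSC libraries. *H2-DMb2*, the other beta chain, had 19.7, 35.2 and 23.4 CPM in yHSCs, 808 and 769 CPM in Selp low 1 and 2, 14.4 CPM in Selp low 3, and 32.8, 34.1 and 11.8 CPM in Selp high paHSCs. In Selp low 1 and 2 it was thus above *H2-DMb1*, and in the other 7 libraries below it. The transcripts of the 2 beta chains are alike: of the 50-base stretches of *H2-DMb1* in the GENCODE M21 transcripts, 22.7% also occur in *H2-DMb2*, and reads from these stretches may have been split or dropped in counting, so the level of each is uncertain to that extent.

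The H2-O genes, which encode the partner that restrains H2-DM, were the only 2 of the 10 with an estimate below -1 on the log2 scale in Selp high paHSCs over yHSCs. *H2-Oa*, the alpha chain, had 11.8, 22.8 and 19.4 CPM in yHSCs, 136, 99.8 and 4.42 CPM in Selp low paHSCs, and 14.2, 9.02 and 3.75 CPM in Selp high paHSCs. *H2-Ob*, the beta chain, had 74.0, 179 and 161 CPM in yHSCs, 462, 478 and 13.9 CPM in Selp low paHSCs, and 21.8, 35.9 and 14.6 CPM in Selp high paHSCs. Every yHSC library was above every Selp high library for *H2-Ob*, and Selp low 3 was lower still, while for *H2-Oa* Selp high 1 fell among the yHSC libraries.

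Per length, the order of the 10 genes differed between libraries below its ends. After *Cd74*, the means in yHSCs were 58.2 ± 22.1 FPKM for *H2-Ab1*, 49.8 ± 6.89 for *H2-DMa*, 33.2 ± 1.05 for *H2-DMb1*, 25.6 ± 10.4 for *H2-Ob*, 22.7 ± 8.61 for *H2-Aa*, 21.5 ± 10.02 for *H2-Eb1*, 14.9 ± 4.64 for *H2-DMb2*, 12.8 ± 4.02 for *H2-Oa* and 0.890 ± 0.57 for *Ciita* (SD, n = 3). Neighbors in this order lay within each other's spread, apart from *Cd74* at the top, *Ciita* at the bottom and the step from *H2-DMa* to *H2-DMb1*. In Selp high paHSCs *H2-Ob* came next to last, at 4.48 ± 2.02 FPKM, below *H2-Oa* at 6.39 ± 3.72, but this order of the means came from Selp high 1 (4.05 against 10.1 FPKM). In Selp high 2 and 3 *H2-Ob* was slightly above *H2-Oa*, at 6.68 against 6.41 and 2.71 against 2.67 FPKM. The mean of *H2-Ob* in yHSCs was 25.6 FPKM.

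Except for *Cd74* and *Ciita*, the genes are neighbors in the MHC region of chromosome 17 (mm39, the build named in the submitters' processing notes, with positions from the authors' file). From low to high coordinate they are *H2-Oa* (chr17:34311314-34314208, plus strand), *H2-DMa* (chr17:34338515-34358075, plus), *H2-DMb2* (chr17:34362281-34370529, plus), *H2-DMb1* (chr17:34372046-34379204, plus), *H2-Ob* (chr17:34457877-34473388, plus), *H2-Ab1* (chr17:34476663-34488393, plus), *H2-Aa* (chr17:34501718-34506797, minus) and *H2-Eb1* (chr17:34524841-34535648, plus). *Ciita* is at chr16:10297923-10346282 and *Cd74* at chr18:60936920-60945724, both on the plus strand, and all 10 are annotated as protein-coding. *H2-Ob* and *H2-Ab1* are adjacent in this order, and of all 10 genes *H2-Ob* alone was lower in each Selp high library than in each yHSC library.

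Whether the Selp fractions of paHSCs differ in class II expression was the first comparison. With edgeR's quasi-likelihood test, 0 of the 10 genes passed the thresholds in Selp high over Selp low paHSCs (an adjusted p up to 0.05 with a log2 fold change of 1 or more in either direction), as did 0% of all 20370 genes tested. All 10 estimates were lower in Selp high paHSCs, 8 of them by more than 1 on the log2 scale. An unadjusted p under 0.05 was found for 8, against 2555 of the 20370 genes tested. The median log2 fold change was -3.29 for the 10 genes and -0.11 for all genes tested. The largest was that of *H2-DMb2*, at -4.35 (SE 1.31, edgeR adjusted p = 0.338), followed by *H2-Ob* at -3.73 (SE 1.15) and *Cd74* at -3.70 (SE 1.49). Without Selp low 3 the median was -3.85. *H2-DMb1* had the smallest, -0.33 (SE 0.63), which turned to 0.31 without Selp low 1, and *H2-DMa* had -0.96 (SE 0.62). None of the 10 genes separated the libraries of the 2 fractions without overlap, whereas 20.9% of all genes did.

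DESeq2, the tool of the study, gave other calls for the same contrast. It passed 6 of the 10 genes as lower in Selp high paHSCs, against 2.28% of all genes with an adjusted p, in either direction. These were *H2-DMb2* (DESeq2 adjusted p = 0.00317), *H2-Ob* (0.00808), *Cd74* (0.0376), *H2-Oa* (0.0402), *H2-Ab1* (0.0438) and *Ciita* (0.0486), while *H2-Aa* (0.0531) and *H2-Eb1* (0.0541) missed the threshold. The labels do not state a pairing of the paHSC libraries. Equal replicate numbers were taken as pairs because the residuals of these libraries correlated (0.177 to 0.303). With a replicate block DESeq2 passed 3 genes, while its share of all genes rose to 9.45%. These were *H2-Oa* (log2 fold change -2.43, DESeq2 adjusted p = 0.000671), *Ciita* (-2.30, 0.0013) and *H2-DMb2* (-3.37, 0.0316), and edgeR with the block passed 0. The count changed with single libraries, and so did the share of all genes that passed. With DESeq2 it was 8 without Selp low 3 (5.29% of all genes), 0 without Selp low 2 (0.434%) and 1 without Selp low 1 (2.92%). Without Selp high 1, 2 and 3 it was 1, 2 and 1, against 1.49%, 8.48% and 1.98% of all genes. With edgeR it was 2 without Selp low 3 (*H2-DMb2* and *H2-Ob*, against 0.223% of all genes) and 0 without any other library.

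**Figure D2:**
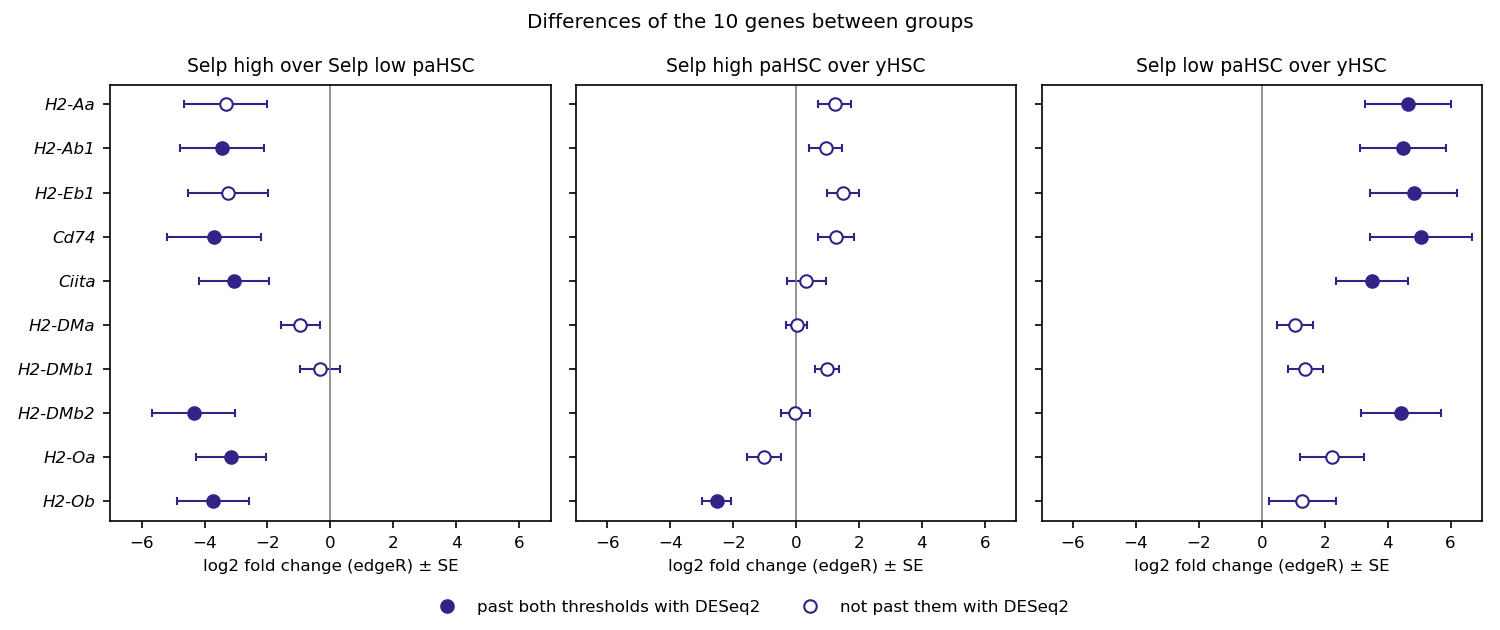
Log2 fold change of each of the 10 genes (points) with its standard error (bars) from edgeR in the 3 comparisons. Filled points passed both thresholds with DESeq2, which holds for 6 genes, 1 gene and 6 genes from left to right, while with edgeR no gene did. The Selp high over Selp low estimates are all below 0 and the Selp low over yHSC estimates all above 0, with wide bars.

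Selp high paHSCs against yHSCs was the contrast without the Selp low libraries. The yHSCs had not been divided by P-selectin, so age and the Selp sort cannot be told apart in it. *H2-Ob* was lower in Selp high paHSCs by 2.53 on the log2 scale (log2 fold change -2.53, SE 0.47), with an edgeR adjusted p of 0.139 and a DESeq2 adjusted p of 2.63e-05. edgeR passed 0 of the 10 genes, against 0.165% of the 20017 genes tested, and DESeq2 passed *H2-Ob* alone, against 2.78% of genes. Of the 10 genes 2 did not overlap between these groups, *H2-Ob* below and *H2-DMb1* above, as did 13.8% of all genes. *H2-DMb1* had a log2 fold change of 0.99 (SE 0.38, edgeR adjusted p = 0.595). The other H2-O gene, *H2-Oa*, had -1.02 (SE 0.53, edgeR adjusted p = 0.783).

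The antigen-binding chains and *Cd74* leaned the other way in this contrast, short of the threshold. The log2 fold changes were 1.49 (SE 0.50) for *H2-Eb1*, 1.25 (SE 0.57) for *Cd74*, 1.23 (SE 0.52) for *H2-Aa* and 0.94 (SE 0.52) for *H2-Ab1*, with edgeR adjusted p-values of 0.474, 0.716, 0.648 and 0.825. *H2-DMa* (0.02), *H2-DMb2* (-0.02) and *Ciita* (0.33) were close to 0. In all, 7 genes were higher and 3 lower, with a median of 0.63 against -0.03 for all genes. An unadjusted p under 0.05 was found for 4, against 1519 of the 20017 genes tested. The call of *H2-Ob* with DESeq2 stood with each library left out in turn (adjusted p of 1.65e-07 to 0.00784). With the replicate block its DESeq2 adjusted p was 6.46e-09. Equal replicate numbers were not taken as pairs in this contrast, since their residuals correlated at -0.412, -0.417 and 0.0525. The block is therefore not a check of this call. With edgeR the adjusted p of *H2-Ob* was 0.101 to 0.596 with each library left out and 0.284 with the block. Without Selp high 3, DESeq2 also passed *H2-Aa* (adjusted p = 0.0279) and *H2-Eb1* (0.0104) as higher, against 4.49% of all genes.

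Selp low paHSCs against yHSCs gave the mirror of the first contrast, and both use the same Selp low libraries. All 10 estimates were higher in Selp low paHSCs, at a median of 3.96 on the log2 scale against 0.08 for all genes. An unadjusted p under 0.05 was found for 7, against 2306 of the 20437 genes tested. edgeR passed 0 of the 10 genes, as it did 0% of the 20437 genes tested. DESeq2 passed 6, *H2-Aa*, *H2-Ab1*, *H2-Eb1*, *Cd74*, *H2-DMb2* and *Ciita*, against 2.95% of all genes. *Cd74* had the largest estimate, 5.06 (SE 1.61, edgeR adjusted p = 0.344), and *H2-DMa* the smallest, 1.06 (SE 0.58, edgeR adjusted p = 0.561). No gene was free of overlap, against 16.3% of all genes, since Selp low 3 lay within or below the yHSC range. Without Selp low 3 the count was 6 with edgeR, against 0.534% of all genes, and 10 with DESeq2, against 8.96%, and the median of the 10 genes was 4.45 with either tool. With DESeq2 it was 1 without Selp low 2 (0.89% of all genes) and 5 without Selp low 1 (4.47%). Without yHSC 1, 2 and 3 it was 5, 6 and 0, against 9.01%, 0.949% and 0.627% of all genes.

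The proportions between the genes within a library do not depend on its scaling. *H2-Aa* stayed at 0.366 to 0.51 of *H2-Ab1* (ratio of FPKM) in all 9 libraries, so the I-A chains kept their proportion. *H2-Ob* was 13.5%, 8.53% and 12.6% of *Cd74* in yHSCs 1 to 3, 1.07%, 0.606% and 3.15% of it across the Selp low libraries, and 0.462%, 1.09% and 0.971% across the Selp high libraries. All 6 paHSC libraries were thus below all 3 yHSC libraries in this ratio, Selp low 3 included. *H2-Oa* showed the same order, with 8.24%, 4.17% and 5.79% of *Cd74* in yHSCs, 1.20%, 0.484% and 3.84% across the Selp low libraries, and 1.15%, 1.05% and 0.955% across the Selp high libraries. This order depended on *Cd74* as the denominator. Against *H2-DMa*, *H2-Ob* was at 0.3165 to 0.6145 in yHSCs, and at 0.5562, 0.7834 and 0.09 in Selp low 1 to 3. *H2-Oa* was at 0.193 to 0.284 and at 0.624, 0.626 and 0.109. Selp low 1 and 2 thus lay within or above the yHSC range. Selp low 3 and the Selp high libraries (at most 0.18 and 0.1725) lay below it.

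Against each other, *H2-Ob* was 1.64 to 2.17 times *H2-Oa* in yHSCs, 0.82 to 1.25 times it in Selp low paHSCs and 0.401 to 1.04 times it in Selp high paHSCs. *H2-DMb2* was 3.30 and 5.395 times *H2-DMb1* in Selp low 1 and 2, and 0.302 times in Selp low 3, 0.343 to 0.624 times in yHSCs and 0.173 to 0.355 times in Selp high paHSCs. In this ratio Selp low 3 lay with the Selp high and yHSC libraries. These ratios were chosen after the levels had been seen and are given without a test. Between a pair of groups with 3 libraries each, an exact permutation test cannot go below p = 0.10.

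**Figure D3:**
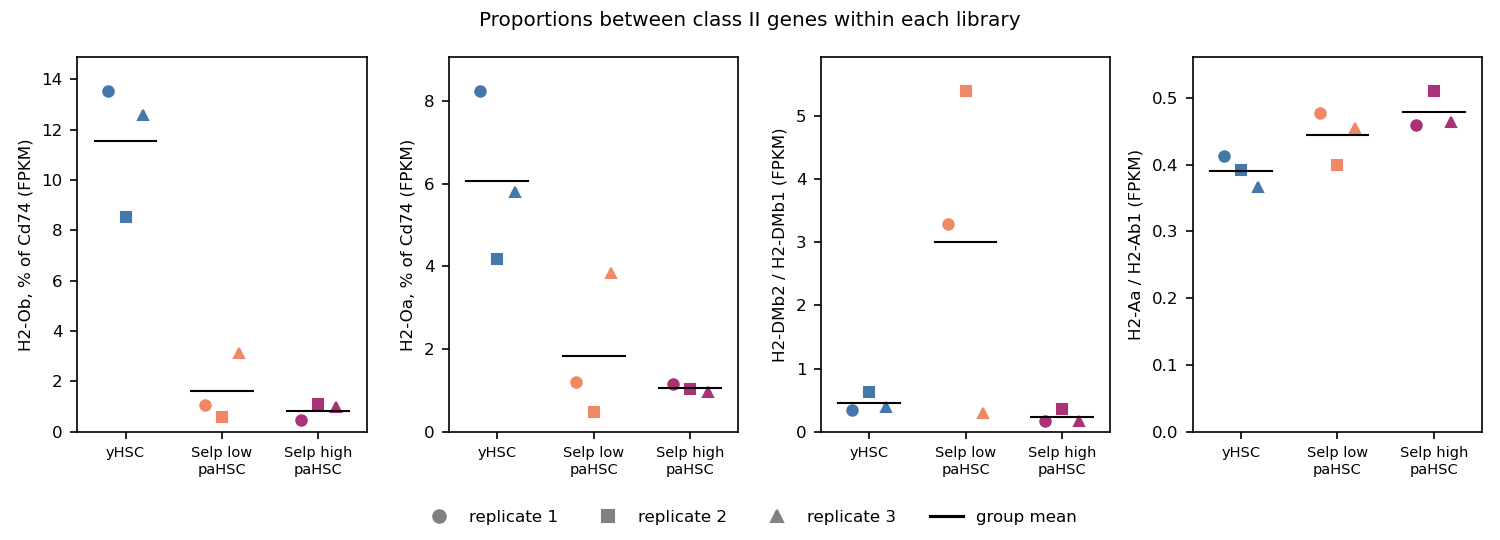
Ratios of FPKM within each library, from 0 on a linear axis, for the 3 libraries of each group. Symbols mark the replicate number and bars the group mean. *H2-Ob* relative to *Cd74* is 8.53% to 13.5% in yHSCs and at most 3.15% in the 6 paHSC libraries, *H2-DMb2* exceeds *H2-DMb1* in Selp low replicates 1 and 2 only, and *H2-Aa* keeps nearly the same proportion to *H2-Ab1* throughout.

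The rest of the pathway was followed on 4 lists, and edgeR passed 0 genes of these lists in any of the 3 comparisons. Among 12 factors of the class II promoter, DESeq2 also passed 0, but not with each library left out. Without Selp low 3 it passed *Irf4* and *Irf8* as lower on the Selp high side of the paHSC contrast, and in Selp low paHSCs over yHSCs it then passed both as higher and *Spi1* as lower. Without Selp high 2 it passed *Irf4* in the paHSC contrast (8.48% of all genes). In Selp high paHSCs over yHSCs it passed *Ep300* without Selp high 2 (3.17%) and *Spi1* without Selp high 3 (4.49%), both as lower. Between the paHSC fractions 3 of the 12 factors were higher and 9 lower on the Selp high side, and the median of their log2 fold changes was -0.38. The largest were those of *Irf4* (-2.47, SE 1.33) and *Irf8* (-1.95, SE 1.20), which encode interferon regulatory factors of lymphoid and myeloid cells, and of the coactivator *Ep300* (-0.95, SE 0.38). *Irf8* was at 228 and 310 CPM in Selp low 1 and 2 and at 3.93 CPM in Selp low 3. The summed list came to 613 to 760 CPM in yHSCs, 758 to 845 CPM in Selp low paHSCs and 449 to 622 CPM in Selp high paHSCs. The sum was similar in the 3 Selp low libraries while single factors were not: *Irf4* was at 37.0, 64.4 and 1.35 CPM in them, and *Spi1*, which encodes the myeloid and B cell factor PU.1, at 157, 105.4 and 462 CPM.

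Of the 8 genes on the interferon gamma route to *Ciita*, neither tool passed any (without Selp low 3, DESeq2 passed *Socs1* in Selp low paHSCs over yHSCs), and the estimates between the paHSC fractions were small. *Ifngr2* had a log2 fold change of -0.79 (SE 0.32), *Ifngr1*, the other receptor chain, -0.59 (SE 0.37), and the kinase *Jak1* 0.46 (SE 0.26). Their summed level was 812 to 1357 CPM in yHSCs, 883 to 1002 CPM in Selp low paHSCs and 873 to 1159 CPM in Selp high paHSCs.

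A list of 8 genes held the endosomal proteases and the reductase of this compartment. *Ctss*, the cathepsin best known for cutting the invariant chain, had 60.6, 54.6 and 79.9 CPM in yHSCs, 457 and 878 CPM in Selp low 1 and 2, 3.67 CPM in Selp low 3, and 46.5, 118 and 37.8 CPM in Selp high paHSCs. As with most class II genes, Selp low 1 and 2 were the highest libraries and Selp low 3 the lowest. It had the largest difference of the list between the fractions (-2.74, SE 1.44, edgeR adjusted p = 0.487, DESeq2 adjusted p = 0.181), and without Selp low 3 it passed with DESeq2 (-3.34, DESeq2 adjusted p = 1.04e-05). DESeq2 passed *Ctsh*, another cathepsin, as lower on the Selp high side of the paHSC contrast. *Ctsh* had 76.6, 34.1 and 50.01 CPM in yHSCs, 326, 309 and 117 CPM in Selp low paHSCs, and 69.1, 62.5 and 63.6 CPM in Selp high paHSCs. All 3 Selp low libraries were thus above the other 6, Selp low 3 included. The log2 fold change was -1.96 between the fractions (SE 0.42, edgeR adjusted p = 0.338, DESeq2 adjusted p = 0.0184) and 2.27 for Selp low paHSCs over yHSCs (SE 0.52, edgeR adjusted p = 0.332, DESeq2 adjusted p = 0.015). The first of these calls was lost without Selp low 1 (DESeq2 adjusted p = 0.0806), Selp low 2 (0.205) or Selp high 3 (0.0948), and the second without Selp low 1 (0.0609), Selp low 2 (0.162), yHSC 2 (0.125) or yHSC 3 (0.271). *Ifi30*, the thiol reductase that opens disulfide bonds of antigens, passed with DESeq2 in Selp low paHSCs over yHSCs (log2 fold change 3.24, DESeq2 adjusted p = 0.000806), at 37.7, 71.1 and 11.2 CPM against 4.03 to 5.004 CPM, and it passed there with each library left out in turn. Between the fractions it missed the threshold (DESeq2 adjusted p = 0.0983), but passed with the replicate block (0.0124) and without Selp low 3 (0.0017). With the block so did *Ctsd*, a cathepsin that was higher in Selp high paHSCs (DESeq2 adjusted p = 0.0335).

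The last list held 7 other genes of class II chains, their turnover and costimulation. *Cd40*, the costimulatory receptor of antigen-presenting cells, had 105.5 and 91.8 CPM in Selp low 1 and 2 and 0.824 to 5.64 CPM in the other 7 libraries. DESeq2 passed it as lower between the fractions on the Selp high side (log2 fold change -4.46, DESeq2 adjusted p = 0.00667; 0.0889 with the replicate block) and as higher in Selp low paHSCs than in yHSCs (DESeq2 adjusted p = 0.00764). *H2-Eb2*, a class II beta chain, was also passed as lower between the fractions (-3.52, DESeq2 adjusted p = 0.0391). *Marchf1*, a ubiquitin ligase that removes class II from the surface, passed in Selp low paHSCs over yHSCs (2.74, DESeq2 adjusted p = 0.01), where its libraries did not overlap. Without Selp low 1 or Selp low 2 these calls of *Cd40*, *H2-Eb2* and *Marchf1* were all lost, with DESeq2 adjusted p-values from 0.0557 (*Cd40*) to 0.595 (*H2-Eb2*). They were kept without Selp low 3, and between the fractions those of *Cd40* and *H2-Eb2* were also lost without Selp high 1 or 3. In Selp low paHSCs over yHSCs the calls of *Cd40* and *Marchf1* were also lost without yHSC 3, and that of *Marchf1* without yHSC 2. *Cd86*, a ligand that costimulates T cells, passed as lower in Selp high paHSCs than in yHSCs (-2.09, edgeR adjusted p = 0.173, DESeq2 adjusted p = 0.000691), at 9.72, 8.72 and 3.55 CPM against 32.3, 27.3 and 32.4 CPM. *H2-Ea*, the alpha chain of I-E, which is defective in C57BL/6 mice, was at most 0.88 CPM and was not tested with edgeR.

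Markers of other cells moved with the class II genes. The 12 genes of a B cell list, among them *Cd79a*, *Cd79b* and *Ms4a1*, were all detected and summed to 6209 CPM in Selp low 1 and 8585 CPM in Selp low 2, against 54.1 CPM in Selp low 3, 106 to 342 CPM in yHSCs and 195 to 570 CPM in Selp high paHSCs. Between the fractions all 12 were lower on the Selp high side, at a median of -3.63 on the log2 scale, with 6 passed by DESeq2 (1 with the replicate block), beside -3.29 for the class II genes. Without Selp low 3 DESeq2 passed 10 of the 12 (5.29% of all genes), and without Selp low 1 or Selp low 2 it passed 0 (2.92% and 0.434%). It also passed 0 without Selp high 1 or 3 (1.49% and 1.98%) and 10 without Selp high 2 (8.48%). In Selp low paHSCs over yHSCs DESeq2 passed 7 of the 12 as higher (2.95%). There it passed 1 without Selp low 1 (4.47%), 0 without Selp low 2 (0.89%) and 12 without Selp low 3 (8.96%). Without yHSC 1, 2 and 3 it passed 3, 4 and 0 (9.01%, 0.949% and 0.627%). B cells express class II, a sort for lineage-negative, c-Kit+ cells would be set to remove them, and the part of such cells in the class II levels was not tested. In bulk RNA, fewer cells of a type and less RNA per cell cannot be told apart. *Cd74* was 1.61 to 1.91 times the summed B cell list in yHSCs, 2.17 to 2.87 times in Selp low paHSCs, and 5.87, 1.8 and 2.4 times in Selp high paHSCs, so that Selp high 1 had the most *Cd74* for its B cell genes.

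*H2-Ob* was 0.522 to 0.697 times the summed B cell list in yHSCs, 0.0744, 0.0556 and 0.256 times in Selp low paHSCs, and 0.063 to 0.0869 times in Selp high paHSCs. In Selp high paHSCs over yHSCs, where *H2-Ob* was lower, 0 of the 12 B cell genes passed with either tool, their median log2 fold change was 0.20 and their sums overlapped. The part of B cells in the level of *H2-Ob* was not tested.

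**Figure D4:**
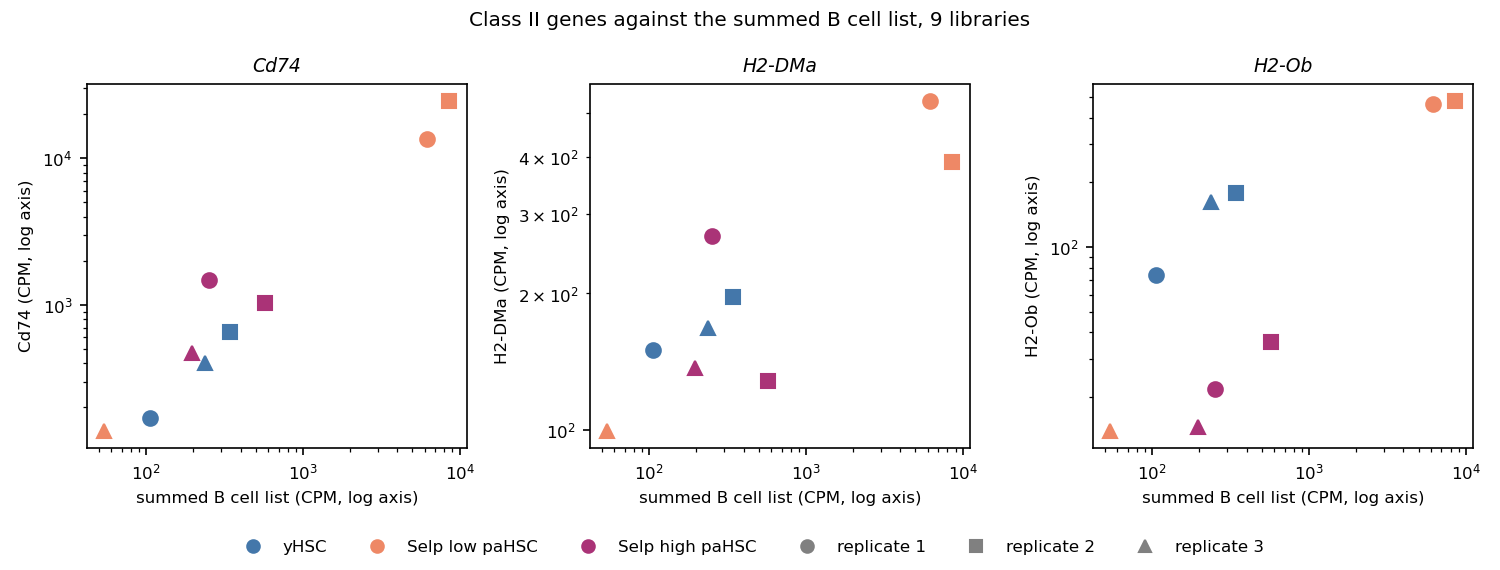
*Cd74*, *H2-DMa* and *H2-Ob* (CPM, vertical axes, logarithmic) against the sum of 12 B cell genes (CPM, horizontal axes, logarithmic) in the 9 libraries, colored by group, with a symbol for each replicate number. Selp low replicates 1 and 2 (6209 and 8585 CPM of B cell genes) are at the upper right of each panel and replicate 3 (54.1 CPM) at the lower left. In the *H2-Ob* panel the 3 yHSC libraries stand above the 3 Selp high libraries at similar sums.

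Most of the 11 T and NK cell genes, led by *Lck*, *Cd3g*, *Trbc2* and *Klrb1c*, also moved with the class II genes. *Klrb1c* did not: it was at 39.2 to 101.7 CPM in Selp high paHSCs and 9.48 to 25.7 CPM in Selp low paHSCs. The 11 genes summed to 500.2 and 1022 CPM in Selp low 1 and 2, 22.2 CPM in Selp low 3, 37.5 to 78.0 CPM in yHSCs and 65.8 to 136 CPM in Selp high paHSCs. Between the fractions 9 of the 11 were lower on the Selp high side, at a median of -3.76. DESeq2 passed 5 of them as lower (*Cd3e*, *Cd3d*, *Cd3g*, *Trbc1* and *Trbc2*), against 2.28% of all genes. In Selp low paHSCs over yHSCs it passed the same 5 and *Klrb1c* as higher (2.95%). That count was 4 without Selp low 1 (4.47%), 2 without Selp low 2 (0.89%) and 10 without Selp low 3 (8.96%). Without yHSC 1, 2 and 3 it was 4, 3 and 3 (9.01%, 0.949% and 0.627%). Between the fractions DESeq2 passed 7 without Selp low 3 (5.29%), 2 without Selp low 1 (2.92%) and 0 without Selp low 2 (0.434%). Without Selp high 1, 2 and 3 it passed 1, 7 and 2 (1.49%, 8.48% and 1.98%). *Klrb1c*, as higher in Selp high paHSCs, was among those passed without Selp low 1 and without Selp high 2. In Selp high paHSCs over yHSCs both tools passed *Klrb1c*, a receptor of NK cells, as higher. With each of the 6 libraries left out in turn this call stood 6 times with DESeq2 and 1 time with edgeR.

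The sums of the remaining lists were ordered otherwise. The 7 plasma cell genes, led by *Jchain*, reached 100208 CPM in Selp low 2 but 602 CPM in Selp low 1, while the 10 class II genes summed to 36012.6 CPM and 25156.4 CPM in them. The 8 dendritic cell genes, led by *Zbtb46*, *Ccr9*, *Siglech* and *Cd209a*, were at 12.7 to 41.5 CPM in sum in all 9 libraries, with overlap between the groups. The 9 macrophage genes, led by *Vcam1*, *C1qb*, *Cd68* and *C1qc*, were lower in Selp low 1 and 2 (120 and 91.5 CPM) than in the other 7 libraries (153 to 612 CPM). The 6 monocyte genes, led by *Ly6c2*, were at 2036 CPM in Selp low 3 and at 131 to 474 CPM elsewhere. No gene of these lists was at 0 in every library. The part of these cells in the class II levels was not tested.

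The genes most like the 10 were found by correlating log2 CPM over the 9 libraries with the mean of the 10 genes, leaving out immunoglobulin and T-cell receptor genes. They were *Ppp3cc*, a calcineurin catalytic subunit (Pearson r = 0.982), *Gm45552*, a long noncoding RNA (0.979), *Fcer2a*, the low-affinity IgE receptor of B cells (0.979), *Art2b* (0.979), *Gimap4*, a GTPase of lymphocytes (0.978), and *Cd79b*, a chain of the B cell receptor complex (0.976). *Fcer2a* had 350.5 and 359 CPM in Selp low 1 and 2, 0.974 CPM in Selp low 3 and 3.01 to 22.5 CPM in the other 6 libraries. With Spearman correlation 1 of these 6 genes remained among the 6 most similar. In each of the 6 genes Selp low 1 and 2 stood above the other 7 libraries, and the correlations are given as a description. Among the 10 genes themselves, each correlated with the mean of the other 9 at 0.925 or more, except *H2-DMb1* (0.808) and *H2-Ob* (0.738).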

How the data were processed

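Per the labels and the study's methods, total RNA was extracted with a column kit, cDNA was made with an ultra-low-input kit, and reads were trimmed with fastp, aligned with HISAT2 (2.2.1) and assigned to genes with featureCounts (2.0.6). The build named in the submitters' processing notes is mm39. The deposited values are whole-number read counts per gene without normalization, beside a gene length. The annotation release, strand setting and treatment of multi-mapping reads are not named in the sources read. No batch is labelled, and 0 columns of per-sample values were left unused.

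The tools were edgeR 4.0.16, DESeq2 1.42.0 and limma 3.58.1 under R 4.3.3. edgeR was fitted to the 6 libraries of each contrast (filterByExpr by group, TMM factors, quasi-likelihood test, legacy setting) and p-values were adjusted by Benjamini-Hochberg over all genes tested. To pass, a gene needed an adjusted p up to 0.05 with a log2 fold change of 1 or more in either direction. DESeq2 was run on the unfiltered table at the same thresholds. Levels are CPM with TMM factors, and FPKM divides these by gene length. A count of 0 allows up to 3 counts, or 0.0695 to 0.198 CPM, which covers counting error only. Alternatives covered normalization, filter, tool, fold minimum, 1 fit of all 9 libraries, a replicate block and each library left out in turn. DESeq2 and single libraries left out were applied to 6 of the gene lists after the data had been seen. Equal replicate numbers were taken to pair libraries where the correlation of residuals exceeded 0.1 for every pair, which held between the paHSC fractions (0.177, 0.277 and 0.303) and not with yHSCs (-0.417 to 0.0917). The edgeR steps were tested on simulated data.

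All 10 genes were named with their values. Other genes were named where they passed with either tool, or were among the 3 of their list with the largest change between the fractions, the 4 most abundant of a marker list, or the 6 most similar to the 10, except that 2 marker genes are not reported here by name. The genes and lists were chosen with earlier results of these data known. Promoters are from RefSeq, figures were drawn with matplotlib 3.10.9, and the authors' other assays were not analysed here.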

Additional observations from a re-analysis of the deposited data

How the results depend on the processing

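The number of the 10 genes past the thresholds depended on the tool and the filter more than on the normalization. In Selp high over Selp low paHSCs it was 0 with edgeR, 2 with no filter on low counts, 6 with DESeq2 and 3 with DESeq2 and the replicate block, and 0 to 8 with each library left out. In Selp high paHSCs over yHSCs it was 0 with edgeR, 1 with no filter, with DESeq2, with DESeq2 and the replicate block, and with voom quality weights, and 0 to 3 with each library left out. For Selp low paHSCs over yHSCs the number was 0 with edgeR, 6 with no filter, 6 with DESeq2 and 4 with DESeq2 and the replicate block, and 0 to 10 with each library left out (5 with DESeq2 without Selp low 1 or yHSC 1). The cause was not tested. RLE and upper-quartile factors, factors without immunoglobulin genes, a mean of at least 10 counts, the newer quasi-likelihood setting, 1 fit of all libraries, adjusted p alone and edgeR with the replicate block gave 0 in each comparison. The median log2 fold change of the 10 genes ranged from -3.87 to -2.36, from 0.11 to 1.02 and from 3.08 to 4.45 over all alternatives in these comparisons. Voom quality weights passed 0 of the 10 genes in the 2 comparisons with Selp low paHSCs. No estimate that passed a threshold changed its direction. Over all genes, the count with edgeR, no filter, DESeq2 and DESeq2 with the block was 0, 193, 589 and 2151 between the fractions, 33, 472, 596 and 641 in Selp high paHSCs over yHSCs, and 0, 365, 517 and 417 in Selp low paHSCs over yHSCs. edgeR with the block gave 9, 0 and 0. For the comparisons with yHSCs the replicate numbers were not taken to pair libraries. Each of the 10 genes had at least 118 counts in every library, and depth was not varied. The standard errors on the log2 scale ran from 0.34 (*H2-DMa*) to 0.63 (*Ciita*) in Selp high paHSCs over yHSCs and from 0.55 (*H2-DMb1*) to 1.61 (*Cd74*) in Selp low paHSCs over yHSCs.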
